A study of Mus musculus with 2 samples.

Results

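Heat shock proteins and chaperones were followed as a gene module in a comparison of Lgr6-high with Lgr5-high cells of mouse dorsal skin. The members were all non-control probes, present in both scanner tables, whose gene name began with Hspa, Hspb, Hspd, Hspe or Hsph and a number, with Hsp90, with Dnaja, Dnajb or Dnajc and a number, or with Cct followed by a number of the chaperonin series. This rule found 80 genes of 27729 on the array, read by 150 probes of 41174. Of these, 45 genes entered the comparison, among 6195 in all, because at least 1 probe was well above background for at least 1 population on both arrays.

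The Lgr5-high cells came from Lgr5-EGFP-ires-CreERT2 knock-in mice and the Lgr6-high cells from Lgr6-EGFP-ires-CreERT2 knock-in mice. In both, green fluorescent protein is driven by the promoter of the named receptor gene, and the brightest fluorescent cells were sorted. Dorsal skin of 3 mice was combined for each sort. Knock-in line, mice and sort thus differ together with the population on both arrays, and their effects cannot be told apart from it. No treatment was named, and the labels used here give no age or sex. From 150 ng of total RNA per labelling, both populations were hybridised together to 2 two-colour Agilent arrays. On array 1 the Lgr6-high RNA carried Cy5 and the Lgr5-high RNA Cy3, and array 2 carried them the other way round. Whether the arrays held separate RNA pools is not given in the labels, so the pair is 1 replicate, no test between the populations can be made, and every SD below is over 2 arrays and carries no spread between animals. In such bulk RNA, fewer cells that express a gene and less of its RNA per cell cannot be told apart.

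Chaperones bind unfolded or newly made proteins and help them fold. Hsp70 proteins do so in cycles of ATP binding that are started by J-domain proteins (the Dnaj genes) and reset by exchange factors, and Hsp90 proteins and the ring-shaped chaperonins act on later folding steps. Some members are made in every cell, whereas others are made mostly when the transcription factor Hsf1 is activated by heat or by other damage to proteins, and separate sets serve the endoplasmic reticulum and the mitochondrion. In epidermis the small heat shock protein Hspb1 is known to increase as keratinocytes differentiate.

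Values are Lgr6-high over Lgr5-high on the log2 scale, so that a positive value means more RNA in the Lgr6-high cells, after background correction and loess normalisation within each array. A gene was called when its mean over the arrays was at least 1 in size (2-fold) and each array gave at least 0.5 in the same direction. The rule held toward Lgr6-high cells for 451 genes (7.28% of 6195) and toward Lgr5-high cells for 295 (4.76%). Among the members 3 of 45 were called higher in Lgr6-high cells, the J-domain proteins Dnajb4 and Dnajb1 and the inducible Hsp90 gene Hsp90aa1, and 1 was called higher in Lgr5-high cells, the J-domain protein Dnajc9. These shares are close to those over all genes. The median of the members was 0.01, beside -0.05 over all genes. As an alternative, limma taking the arrays as 2 replicates called the same members, beside 7.39% and 4.87% of all genes, where the residual spread is that of the hybridisations alone.

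The labels were first set against marker genes. Lgr5 was lower in the Lgr6-high cells on both arrays, at -1.74 and -1.92, and Lgr6 itself did not pass the filter. Of 5 basal keratinocyte markers 1 was called, Itga6 toward Lgr6-high cells, and 3 had opposite signs on the arrays, with Krt14 at 2.24 and -0.10, Krt15 at 1.95 and -0.12 and Krt5 at 1.82 and -0.15. Of 5 bulge and hair germ markers 4 were called higher in Lgr5-high cells, and 4 of 4 suprabasal keratinocyte markers in Lgr6-high cells. Among these, Lgr5 and Tcf7l1 passed the filter only through the Lgr5-high cells, and Krt1 and Lor only through the Lgr6-high cells. For such markers the filter itself favours the direction found. Cd34, Lhx2, Krt10 and Sprr1a were well above background in both populations on both arrays. On arrays 1 and 2 the summed normalised intensities of the bulge list were 1335 and 1200 in Lgr6-high and 3811 and 3369 in Lgr5-high cells. Those of the suprabasal list were 14155 and 10491 against 1248 and 1337, in the same array order. Of 8 fibroblast markers 6 passed and 4 were called higher in Lgr5-high cells. Their sums on arrays 1 and 2 were 872 and 503 in Lgr6-high and 3348 and 2026 in Lgr5-high cells. Dcn, Col3a1 and Lum were not well above background in Lgr6-high cells on either array, and Col1a1 and Col1a2 on only 1. Of 7 endothelial and mural markers 4 passed, 3 of them called higher in Lgr5-high cells. Of 6 leukocyte markers 1 passed (Thy1), not called, and of 5 melanocyte markers 1 passed (Dct), called higher in Lgr5-high cells. Dct and the endothelial markers Egfl7 and Ramp2 also passed only through the Lgr5-high cells. The part of these cell types in the chaperone values was not tested.

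Sequences are shown for members whose probes gave different values, or whose promoters are near-identical, shared or hold the same element. Whether the position of a probe or a control region sets any of these values was not tested. The genes Hspa1a and Hspa1b, which encode the stress-inducible Hsp70, are near-identical neighbours on chromosome 17, and labelled RNA of either may bind probes of the other, so that values of the single genes are uncertain. Their promoters are shown because the genes gave like values and have nearly the same control region. The 250 bases before each start, from RefSeq on build GRCm38.p6, both on the minus strand at chr17:34972157-34972406 and chr17:34959239-34959488, differed at 3 positions (98.8% identical). Capitals mark an inverted repeat of heat shock units.
Hspa1a promoter: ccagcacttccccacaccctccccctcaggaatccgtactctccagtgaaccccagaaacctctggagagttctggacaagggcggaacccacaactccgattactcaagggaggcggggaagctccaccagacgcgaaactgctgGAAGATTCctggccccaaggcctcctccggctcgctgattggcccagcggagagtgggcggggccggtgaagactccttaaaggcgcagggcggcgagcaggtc
Hspa1b promoter: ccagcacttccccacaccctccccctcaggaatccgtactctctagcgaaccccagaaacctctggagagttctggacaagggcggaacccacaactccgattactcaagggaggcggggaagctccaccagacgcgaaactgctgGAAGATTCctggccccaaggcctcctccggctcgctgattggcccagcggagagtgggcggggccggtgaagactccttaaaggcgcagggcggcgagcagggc

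Array probes of Hspa1b and Hspa8 are shown because the brighter and the dimmer probe of each gene gave different array values below. They are the deposited 60-base oligos on build mm9, at chr17:35094200-35094259 and chr17:35095608-35095667 (minus strand) for Hspa1b, and at chr9:40612674-40612733 and chr9:40611142-40611201 (plus strand) for the constitutive Hsp70 gene Hspa8. No bases are marked.
Hspa1b brighter probe: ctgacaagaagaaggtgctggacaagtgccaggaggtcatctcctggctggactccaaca
Hspa1b dimmer probe: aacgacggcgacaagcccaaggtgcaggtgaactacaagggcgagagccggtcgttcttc
Hspa8 brighter probe: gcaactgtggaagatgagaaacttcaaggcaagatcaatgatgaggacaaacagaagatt
Hspa8 dimmer probe: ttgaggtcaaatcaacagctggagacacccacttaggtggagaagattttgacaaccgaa

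The 10 heat-inducible cytosolic members all passed, and had the highest median of the role lists on array 1 and in the mean. On array 2 the median of the endoplasmic reticulum members was higher, at 0.60 against 0.19. Of the 10 heat-inducible members, 3 were called toward Lgr6-high cells and 0 toward Lgr5-high cells, beside 7.28% and 4.76% over all genes. Of the same 10, 6 had a mean of at least 0.5 against none at -0.5 or below. Their median was 0.97 on array 1, 0.19 on array 2 and 0.65 in the mean. The list was drawn up with earlier results of these arrays known, so its count is not independent evidence of a direction. On array 1, 9 of the 10 were positive, and on array 2, 5 of the 10.

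Dnajb4, a J-domain partner of Hsp70, had 1.19 on array 1 and 1.60 on array 2, a mean of 1.40 ± 0.29 (SD, n = 2 arrays) or 2.63-fold. Both orientations placed this probe above the 2-fold threshold. The second passing probe of Dnajb4 gave 0.17 and 0.97, and with the median over probes neither it, at 0.98, nor Dnajb1, at 0.99, was called. Dnajb1, the main J-domain partner of inducible Hsp70, had 1.89 and 0.57, a mean of 1.23 ± 0.93 or 2.34-fold. It passed on both arrays, though array 1 gave the larger value by 1.32. Hsp90aa1, the stress-inducible cytosolic Hsp90, had 0.95 and 1.06, a mean of 1.01 ± 0.08, close to the threshold and nearly equal on both arrays in this processing. It had 0.78 and 1.62 with the scanner software's ratio, 1.12 and 0.12 without background subtraction, and 0.95 and -0.40 with the background model fitted on all spots. Hspb8, a small heat shock protein that directs misfolded proteins to autophagy, had 0.61 and 1.16 (mean 0.89 ± 0.39). Dnaja1, a farnesylated J-domain protein, had 0.77 and 0.70 (mean 0.73 ± 0.05). These last 2 had the same direction on both arrays and were below the threshold of the mean.

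The inducible Hsp70 genes, Hspb1 and Hsph1 gave opposite signs on the arrays. Hspa1a had 1.78 on array 1 and -0.67 on array 2 (mean 0.56 ± 1.73). Its mean signals before any correction were 16118 for Lgr6-high (Cy5) and 42960 for Lgr5-high (Cy3) on array 1, and 97070 for Lgr6-high (Cy3) and 14426 for Lgr5-high (Cy5) on array 2, so that the Cy3 channel was the brighter on both. Hspa1b had 1.29 and -0.32 (mean 0.49 ± 1.14), from 4105 and 12203 on array 1 and 29651 and 4330 on array 2, in the same order of populations. For both genes the uncorrected signals thus had, on each array, the reverse direction of the normalised ratio. The Cy3 channel was also the brighter on both arrays for Hsp90aa1 and Hspa8, whose normalised values had like signs. Hspb1 had 0.99 and -0.40 (mean 0.30 ± 0.98), and Hsph1, the exchange factor Hsp110, 0.22 and -0.87 (mean -0.33 ± 0.77). For Hspa1a, Hspa1b, Hspb1 and Hsph1 the array values differed by 2.44, 1.61, 1.39 and 1.09, more than the mean itself, and no direction is shown. Hspa4l, a relative of Hsp110, was negative on both arrays, at -0.43 and -0.19.

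**Figure D1:**
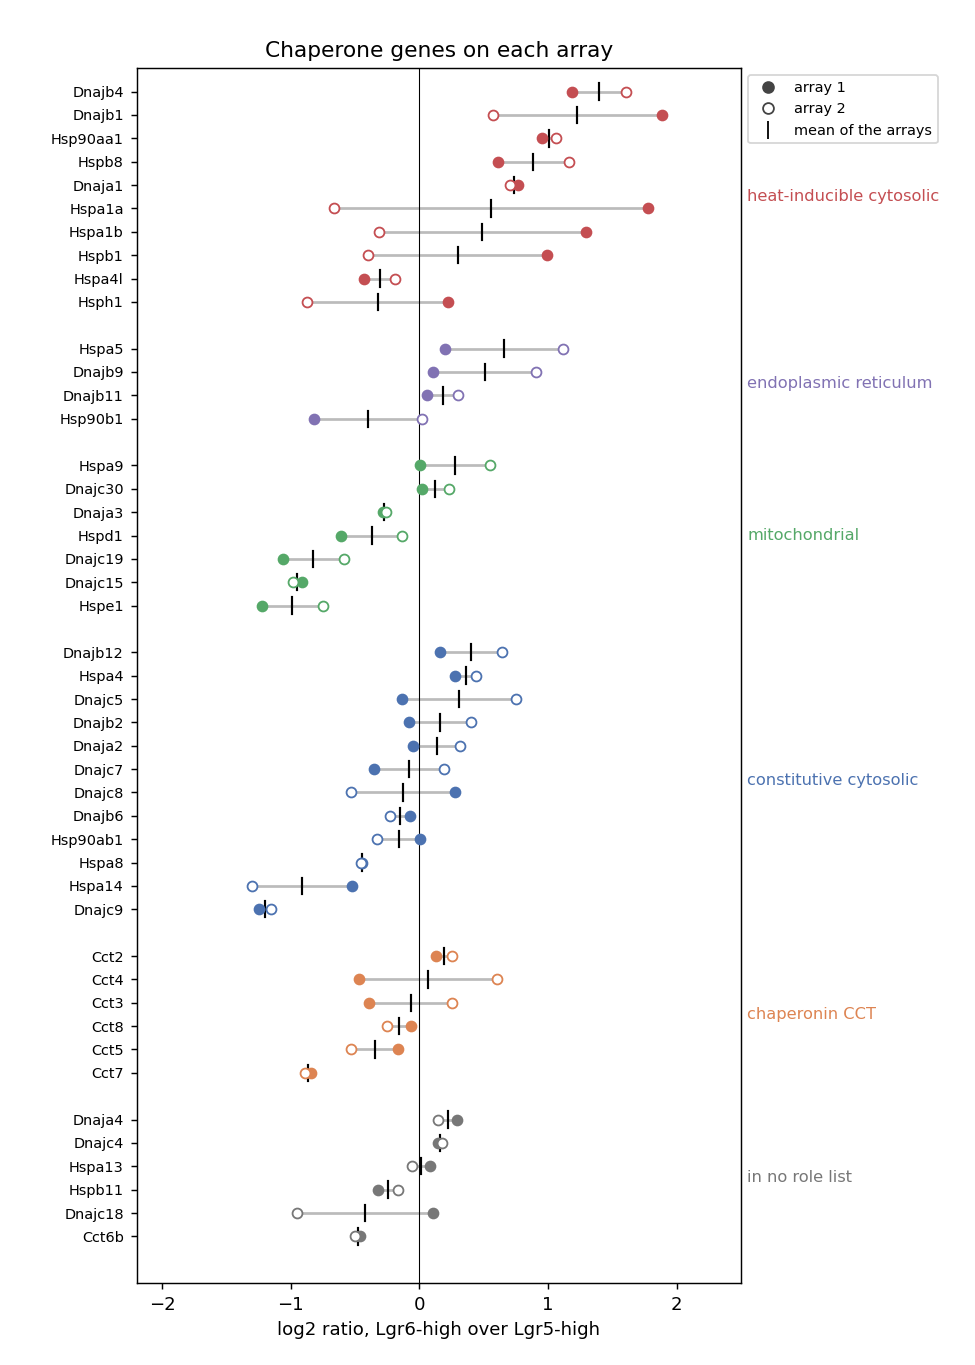
Log2 ratio of Lgr6-high over Lgr5-high cells for the 45 members that passed, grouped by role. Filled points are array 1, open points array 2, and the black bar is their mean. Hsp90aa1 and Dnajc9 lie on one side of 0 with their points close together, and Dnajb4 on one side with its points further apart. The points of Hspa1a, Hspa1b, Hspb1 and Hsph1 lie on both sides.

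The same spots were compared with the scanner software's own ratio, which uses a different background and dye correction. There the heat-inducible median was 0.83 on array 1 and 0.81 on array 2, and 8 of 10 genes were positive on both arrays. Hspa1a had 0.87 and 0.72, Hspa1b 0.69 and 0.85, Hspb1 0.70 and 0.41, and Dnajb1 1.38 and 1.51. Hsph1 kept opposite signs, at 0.13 and -0.43. The software's ratio called 15.5% of all genes in each direction. It called 5 members higher in Lgr6-high cells (Dnajb1, Dnajb4, Hsp90aa1, Hspa5 and Hspb8) and 4 in Lgr5-high cells (Dnaja3, Dnajc15, Dnajc9 and Hspa14). Of the last 4, Dnaja3 was well above background in Lgr6-high cells on only 1 array. On this scale Hspa1a and Hspa1b were positive on both arrays, below the threshold of the mean at 0.80 and 0.77.

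Constitutive cytosolic members lay near 0. Of 17 on the array 12 passed, with 0 called higher in Lgr6-high cells and 1 in Lgr5-high cells, beside 7.28% and 4.76%, and a median of -0.08 on array 1, -0.02 on array 2 and -0.10 in the mean. Hspa8, the constitutive Hsp70, had -0.44 and -0.46 (mean -0.45 ± 0.01), the smallest difference between the arrays among all 45 members in this processing. It had -0.51 and 0.09 with the scanner's ratio and -0.42 and -1.16 without background subtraction. With the background model fitted on all spots it had -0.44 and -1.69. Hsp90ab1, the constitutive partner of Hsp90aa1, had 0.00 and -0.33 (mean -0.16 ± 0.23). Dnajc9, a J-domain protein that also chaperones histones H3 and H4, had -1.25 and -1.16 (mean -1.20 ± 0.07) and was the member called higher in Lgr5-high cells. Hspa14, an Hsp70 of the ribosome-associated complex, had -0.52 and -1.31 (mean -0.91 ± 0.55). The other 8 had means between -0.15 and 0.40, and 6 of the 12 changed sign between the arrays.

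Heat-inducible cytosolic members therefore had a higher median than constitutive cytosolic members by 1.05 on array 1, 0.21 on array 2 and 0.75 in the mean. Members of the endoplasmic reticulum and the mitochondrion, some also inducible by stress, are in neither group. In this processing the difference was smaller on array 2. There its sign turned with other background corrections, to -0.93 with the background model fitted on all spots and to -0.36 without background subtraction. With the scanner's ratio the difference was 0.90 on array 1 and 0.56 on array 2. With median centring and no loess it was 0.10 and 0.86, larger on array 2. Within the Hsp70 family Hspa1a and Hspa8 were 1.78 against -0.44 on array 1 and -0.67 against -0.46 on array 2. Within the Hsp90 family Hsp90aa1 and Hsp90ab1 were 0.95 against 0.00 and 1.06 against -0.33, so that the inducible gene had the higher ratio on both arrays.

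**Figure D2:**
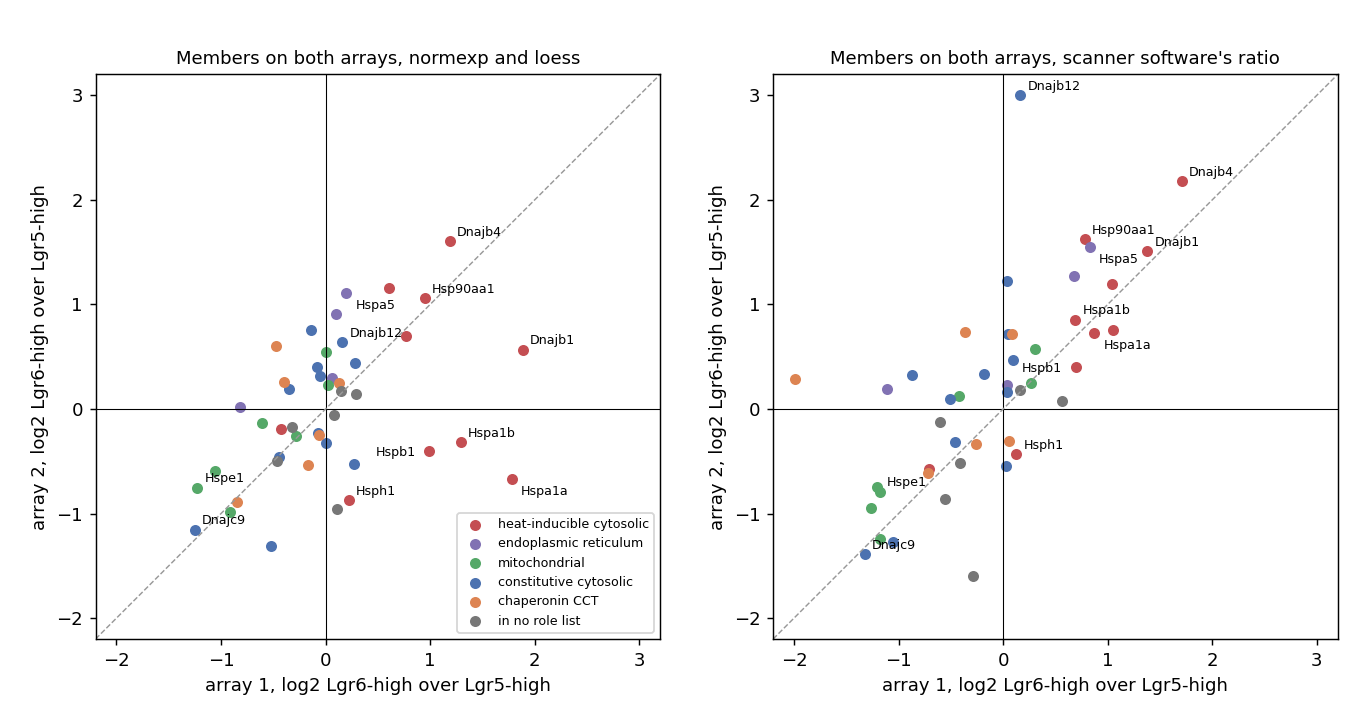
Log2 ratio on array 1 (horizontal) against array 2 (vertical) for the 45 members, coloured by role, after normexp and loess on the left and as the scanner software's ratio on the right. The dashed line marks equal values. With loess Hspa1a, Hspa1b and Hspb1 lie below 0 on array 2, and with the scanner's ratio all 3 are positive on both arrays. Dnajb12, at 0.17 and 3.00 on the right, was a dim spot.

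Endoplasmic reticulum members were higher on array 2 than on array 1. Of 6 on the array 4 passed and none was called. Hspa5 (BiP), the Hsp70 of that compartment, had 0.20 and 1.11 (mean 0.66 ± 0.65), and Dnajb9, its J-domain partner that rises in the unfolded protein response, had 0.10 and 0.91 (mean 0.51 ± 0.57). Dnajb11 had 0.06 and 0.30. Hsp90b1 (Grp94), the Hsp90 of the compartment, had -0.82 and 0.02 (mean -0.40 ± 0.59). The promoters of Hspa5 and Hsp90b1 are shown because both hold the endoplasmic reticulum stress element, in capitals, although their mean ratios had opposite signs. They are the 250 bases before each start on GRCm38.p6, at chr2:34771840-34772089 (plus strand) and chr10:86705445-86705694 (minus strand).
Hspa5 promoter: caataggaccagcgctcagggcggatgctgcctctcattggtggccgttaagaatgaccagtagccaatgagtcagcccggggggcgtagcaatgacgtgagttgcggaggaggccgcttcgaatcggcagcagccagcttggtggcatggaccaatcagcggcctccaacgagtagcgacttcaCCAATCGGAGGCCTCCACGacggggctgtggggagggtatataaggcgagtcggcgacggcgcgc
Hsp90b1 promoter: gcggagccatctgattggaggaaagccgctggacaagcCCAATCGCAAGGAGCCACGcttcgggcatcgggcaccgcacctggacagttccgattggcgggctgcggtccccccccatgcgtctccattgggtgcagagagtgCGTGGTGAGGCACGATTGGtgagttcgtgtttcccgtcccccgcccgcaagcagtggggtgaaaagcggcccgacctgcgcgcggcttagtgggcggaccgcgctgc

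Mitochondrial members leaned toward the Lgr5-high cells. Of 8 on the array 7 passed and none was called by the rule of size, with medians of -0.61 on array 1, -0.26 on array 2 and -0.37 in the mean. All 7 had the same sign on both arrays, 5 negative and 2 positive (Hspa9 and Dnajc30, at 0.00 and 0.02 on array 1), beside 38.6% negative and 33.8% positive on both arrays over all genes. With the scanner's ratio Hspd1 had opposite signs, at -0.43 and 0.12. Hspe1 (Hsp10), the lid of the mitochondrial chaperonin, had -1.23 and -0.75 (mean -0.99 ± 0.34), and its partner ring Hspd1 (Hsp60) had -0.61 and -0.13 (mean -0.37 ± 0.34). Dnajc15 and Dnajc19, J-domain proteins of the inner membrane import motor, had -0.92 and -0.99 (mean -0.95 ± 0.05) and -1.06 and -0.59 (mean -0.83 ± 0.33). The second, dimmer probe of Dnajc19 gave 0.48 and -0.35. Dnaja3 had -0.28 and -0.26, but was dim and passed the filter only through the Lgr5-high cells, which favours that direction. The mitochondrial Hsp70, Hspa9, had 0.00 and 0.55.

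Hspd1 and Hspe1 are transcribed from a shared control region in opposite directions, with starts 216 bases apart on GRCm38.p6, for the Hspd1 start nearest to Hspe1. Both were negative on both arrays after loess, whereas the scanner's ratio of Hspd1 was 0.12 on array 2. The 30 bases around their overlapping heat shock elements are shown as chr1:55088053-55088082 on the plus strand, with the elements in capitals.
Hspd1 and Hspe1 shared element: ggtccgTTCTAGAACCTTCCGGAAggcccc

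The subunits of the chaperonin CCT, the cytosolic ring that folds actin and tubulin, did not move as a unit. Of 7 on the array 6 passed and none was called. Cct7 had -0.85 and -0.89 (mean -0.87 ± 0.03), nearly equal on both arrays. The other 5 had means between -0.35 (Cct5) and 0.19 (Cct2), and Cct4 had -0.47 and 0.61. The subunits of 1 complex thus spanned -0.87 to 0.19. The 6 members in none of these lists were not called. Among them Dnajc4 had 0.15 and 0.17, and Cct6b, a subunit known from testis, had -0.46 and -0.50.

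The 35 members that did not pass included 16 with no spot well above background in any channel and 19 with such a spot somewhere. Among the first were the subunit Cct6a, the muscle small heat shock proteins Hspb3, Hspb6 and Hspb7, and Hspa12a. Among the second were Dnajc3 and Dnajc10 of the endoplasmic reticulum and the testis-related Hspa2 and Hspa1l. No ratio is given for these. Of the 45 that passed, 39 were above background for both populations on both arrays, and no spot was saturated.

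Opposite signs on the arrays were found in 15 of the 45 members (33.3%), beside 27.5% over all genes. The arrays differed by over 1 in 7 of 45, beside 6.60% over all genes, and 5 of these 7 were heat-inducible members. The other 2 were Cct4, at -1.08, and Dnajc18, at 1.06. Across the 45 members the array values had a Pearson correlation of 0.44, against 0.75 across all genes and 0.69 across the members with the scanner's ratio. These are descriptions over genes that share the same hybridisations.

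The difference between the arrays went with the brightness of the spot. Of the members 12 lay in the brightest 10% of genes, among them the heat-inducible Dnajb1, Hsp90aa1, Hspa1a, Hspa1b, Hspb1 and Hsph1. In this range array 1 gave the larger value in 9 of 12 members, with a median difference of 0.35, and in 76.8% of the other 608 genes. Among dimmer genes array 1 gave the larger value in 10 of 33 members, and in 41.6% of other genes. Among the brightest 62 genes, the top 1%, the medians were 0.64 on array 1 and -1.35 on array 2, against 0.00 and -0.11 with the scanner's ratio, and Hspa1a was the member among them. Brightness here compares spots and not amounts of RNA between genes.

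**Figure D3:**
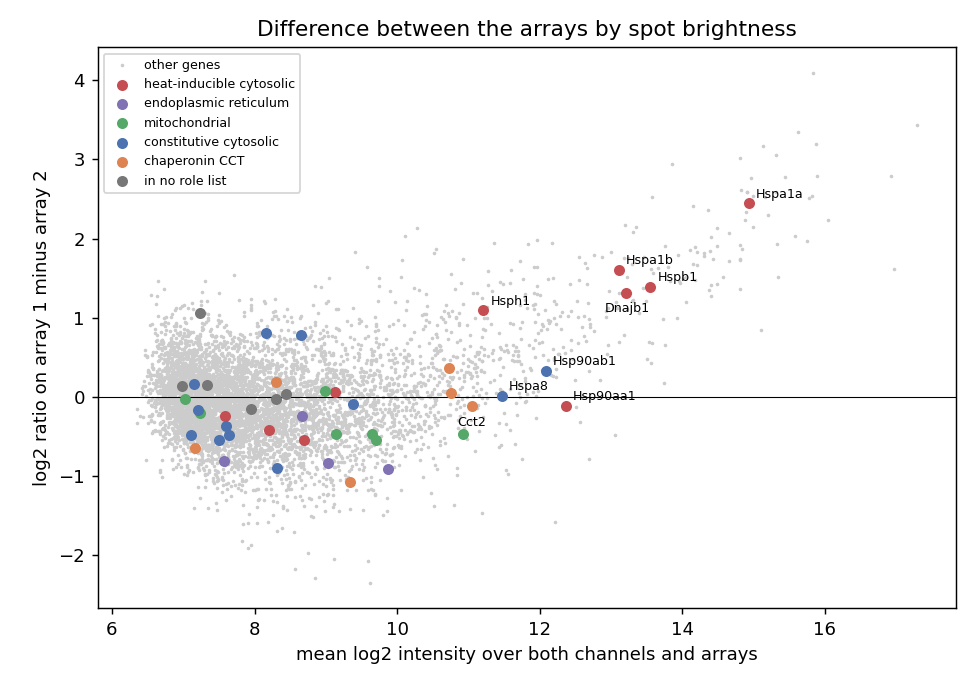
Log2 ratio on array 1 minus array 2 (vertical) against the mean log2 intensity of the spot (horizontal), with members coloured by role over all other genes in grey. The bright heat-inducible members Hspa1a, Hspa1b, Hspb1 and Dnajb1 follow the upward drift of other bright genes, and Hsp90aa1, at -0.11, lies below it.

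Probes of different brightness for the same gene were then compared. Over the 13 genes with several passing probes, array 1 minus array 2 was larger at the brighter probe in 8. In the 5 genes with several passing probes and the brighter one in the brightest 10% (Dnajb1, Hsp90ab1, Hspa1a, Hspa1b and Hspa8), it was larger there in 5 of 5, and in the other genes in 3 of 8. The brighter Hspa1b probe shown above, at a mean log2 intensity of 13.1, gave 1.29 and -0.32, and the dimmer one, at 9.25, gave 0.40 and 1.18, positive on both arrays. The dimmer Dnajb1 probe gave 0.51 and 1.01, against 1.89 and 0.57. The brighter Hspa8 probe gave -0.44 and -0.46, but the dimmer one -0.56 and 0.48. The dimmer Hsp90ab1 probe gave -0.62 and 0.76. Both Hspa1a probes, which share 30 bases, were in the brightest 10% and gave opposite signs on the arrays, with 1.24 and -0.37 at the second. Whether brightness accounts for the opposite signs of the heat-inducible genes was not tested.

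The calls changed with the array and with the processing. On array 1 alone 4 members passed 2-fold toward Lgr6-high cells (Dnajb1, Dnajb4, Hspa1a and Hspa1b), beside 7.01% of all genes, and on array 2 alone 4 (Dnajb4, Hsp90aa1, Hspa5 and Hspb8), beside 9.86%, with Dnajb4 the sole gene in both. Toward Lgr5-high cells they were Dnajc19, Dnajc9 and Hspe1 on array 1, beside 5.08%, and Dnajc9 and Hspa14 on array 2, beside 7.60%. With the background model fitted on all spots, marked outliers included, no member was called higher in Lgr6-high cells, Hspa1a had 1.78 and -3.80, and the heat-inducible median was -0.01. Without background subtraction none was called either, and the median was 0.28. A narrower loess of span 0.1, chosen after seeing the data, gave a heat-inducible median of 0.79, with Hspa1a at 1.15 and 0.48, Hspa1b at 0.90 and 0.46, Hspb1 at 0.55 and 0.47 and Dnajb1 at 1.45 and 1.32. Dnajb4 was positive on both arrays with this loess, with the scanner's ratio and with either change of background correction, although its mean fell below the threshold, to 0.79 and 0.99, in the last 2 of these. With median centring and no loess it had -0.32 and 3.43.

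**Figure D4:**
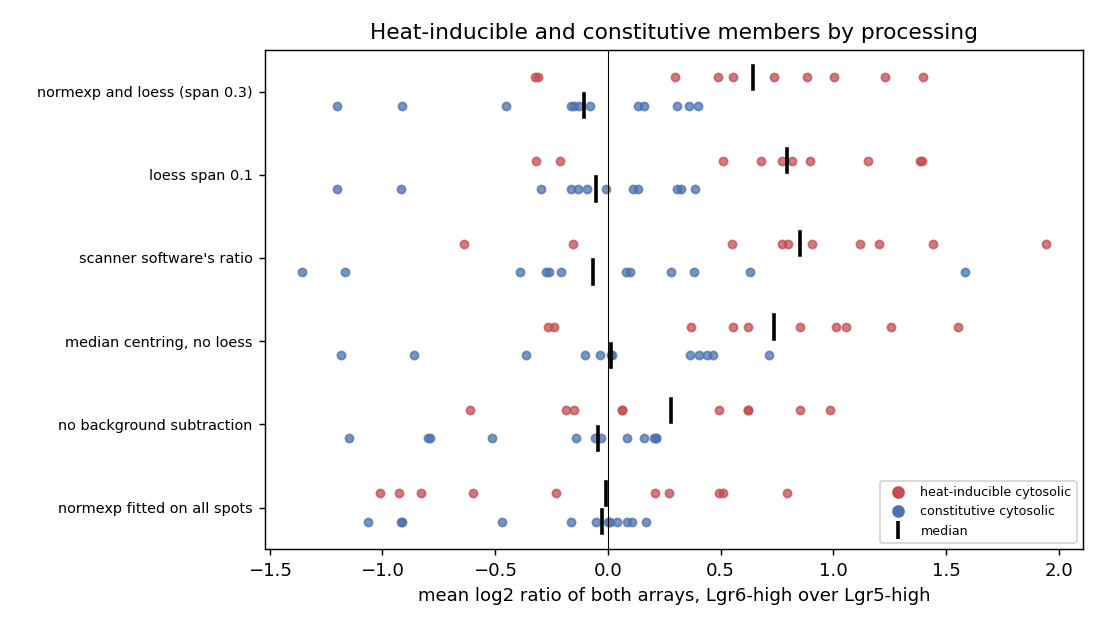
Mean log2 ratio of both arrays (horizontal) for the 10 heat-inducible and 12 constitutive cytosolic members under 6 ways of processing, with black bars at the medians. The heat-inducible median lies to the right of the constitutive one by 0.72 to 0.92 in the first 4 settings, by 0.32 without background subtraction and by 0.02 with the background model fitted on all spots.

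Promoter windows of 300 bases, 250 before and 50 after each RefSeq start, were found for 36 of the 45 members. An inverted repeat of 2 heat shock units, GAANNTTC or TTCNNGAA (each reads the same on both strands, and the forms can overlap), was in the window of 7 of 9 heat-inducible members. It was in 1 of 9 constitutive, 2 of 5 mitochondrial, 2 of 5 chaperonin CCT and 0 of 4 endoplasmic reticulum members. Over all 32851 windows it was in 15.1%. The longer element of 3 units (GAA, TTC and GAA with 2 bases between them, on either strand) contains both shorter forms. It was in 0.662% of genes (0.603% of windows) and in 4 members that passed, Dnajb6, Hsph1, Hspd1 and Hspe1. The 4 genes of this longer element had mean ratios of -0.15, -0.33, -0.37 and -0.99. The endoplasmic reticulum stress element (CCAAT and CCACG with 9 bases between them, on either strand) was in 0.137% of genes (0.119% of windows). It was in Hspa5 and Hsp90b1. A match describes letters in these windows and is not a measured binding site.

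Genes around the chaperones were read from lists of the same pathways. Of 35 regulators and co-chaperones outside the name rule 27 passed, of which 1 was called. Their median was -0.16. The called gene, higher in Lgr6-high cells, was Bag5, an Hsp70 exchange factor, at 1.01 and 1.48 (mean 1.24 ± 0.33). The heat shock transcription factor gene Hsf1 had 0.81 and -0.22. Of 19 genes in a list drawn up for the unfolded protein response 16 passed, with a median of -0.25, and 1 was called. It was Serpinh1, the collagen chaperone Hsp47, at -1.32 and -1.49 (mean -1.40 ± 0.12). Serpinh1 was higher in Lgr5-high cells, where the collagens Col1a1 and Col1a2 were also higher. Its value is not read as a sign of the unfolded protein response. The part of fibroblast RNA in the Serpinh1 value was not tested.

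Immediate early and dissociation genes, which rise when tissue is taken apart as well as with growth signals, moved much more than the chaperones. Of 24 such genes 23 passed. The rule called 18 of them, all toward Lgr6-high cells, and the list's median was 1.68 on array 1 and 1.75 on array 2. The highest 5 were the phosphatase Dusp1 (3.37 and 2.80), the nuclear receptor Nr4a1 (3.48 and 2.17), Atf3, a stress-induced transcription factor (3.43 and 2.21), the growth inhibitor Btg2 (2.68 and 2.57) and the RNA-binding Zfp36 (3.24 and 1.91). On arrays 1 and 2 the list's summed normalised intensities were 141585 and 114874 in Lgr6-high and 34079.5 and 47409 in Lgr5-high cells. They were higher in Lgr6-high cells on both arrays. The sums of the 10 heat-inducible chaperones were 116518 and 68403 in Lgr6-high and 41976.5 and 82161 in Lgr5-high cells, in the same array order. They were higher in Lgr6-high cells on array 1 and lower on array 2, as were the sums over all genes that passed. Those were 6799930 and 4917210 in Lgr6-high and 5011690 and 8030860 in Lgr5-high cells. The turn between the arrays is thus not particular to these chaperones. The part of the immediate early response in the ratios of the heat-inducible chaperones was not tested. Tissue handling in the separate sorts cannot be told apart from the population.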

How the data were processed

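For both arrays the authors deposited scanner output that gives, in both channels, spot and local background intensity, and the software's log10 ratio of Cy5 over Cy3, made after its own background subtraction and dye normalisation. Per the file headers the software was Agilent Feature Extraction 10.5.1.1, with probe positions on mm9, whereas the submitters' processing notes name 9.5.3. The authors' value table holds the same log10 ratios, with array 2 turned so that Lgr6-high is over Lgr5-high throughout. Before turning, the arrays' log ratios had a Pearson correlation of -0.447 over 43379 probe spots, and the dyes in the labels set the direction.

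From these, with R 4.3.3 and limma 3.58.1, background was corrected by normexp (offset 50, fitted on spots without an outlier mark) and ratios by loess (span 0.3, control spots at weight 0). Marked spots, 139 and 204, were left out, spots of a probe averaged, and each gene represented by its brightest passing probe. Probes were named through RefSeq accessions and symbols (GRCm38.p6). As alternatives, other corrections, the scanner's ratios, other filters, each array alone and limma with Benjamini-Hochberg adjustment were run. The procedure was also run on simulated data, with a dye bias that rose evenly with log intensity and was alike on both arrays. That setting was not made to hold the array difference of the brightest spots, so it gives no support for the bright members. Probe spots were above background at 31.6% and 33.3% in Cy3 and 15.3% and 16.2% in Cy5, which limits precision for dim members.

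The members, role lists and marker lists were chosen with earlier results of these data known. Members named are those with a mean of at least 0.5 in size in a role list, the 8 brightest, the 5 with the largest and the 5 with the smallest array differences, and those called. Others named were picked after their values were seen, as partners or as ends of a range.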

Additional observations from a re-analysis of the deposited data

How the results depend on the processing

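No paired analysis was possible because the labels give no replicate block beyond the array, and each ratio is already formed within its array. With the background model fitted on all spots, calls over all genes were 124 and 151 (Lgr6-high and Lgr5-high) in place of 451 and 295, and members called were 0 and 1 in place of 3 and 1. The sole member then called was Cct7. The heat-inducible minus constitutive cytosolic difference was 0.0157 in place of 0.75 there, and the members' median absolute array difference 0.376 in place of 0.416. Without background subtraction the Lgr6-high count was 212, members called 0 and 2, and the array difference 0.373. With median centring and no loess the counts were 134 and 57, members called 0 and 0, and the array difference 3.77. With the scanner's ratio, or the authors' value table holding the same values, the counts were 958 and 958, members called 5 and 4, and the array difference 0.377. The share of calls toward Lgr6-high cells was 60.5% in the main setting, 45.1% with all spots in the background model, 51.0% without background subtraction, 70.2% with median centring and 50% with the scanner's ratio.

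The members' array difference was 0.348 without a filter on dim probes, 0.473 with both populations above background, 0.410 with the median over probes and 0.376 with a loess span of 0.1, which was chosen after seeing the data. The median over probes left 1 member called in Lgr6-high cells, Hsp90aa1. Each array alone gave 434 to 611 and 315 to 471 genes, 4 to 4 and 2 to 3 members, and a heat-inducible minus constitutive cytosolic difference of 0.21 to 1.05. Limma, taking the arrays as 2 replicates at an adjusted p under 0.05, called 458 and 302 genes and the same 3 and 1 members, and measures only the spread between hybridisations. The difference of the medians, in the mean of the arrays, was positive under each setting run, but on array 2 it was -0.93 with all spots in the background model and -0.36 without background subtraction. Among the 45 members' mean ratios, 18 moved beyond the spread of the arrays with all spots in the background model, 13 without background subtraction, 20 with the scanner's ratio, 11 with median centring, and 4 each with the median over probes and the narrower loess. The cause was not tested. Cy5 signals were above background at fewer spots than Cy3 signals, which limits the dim members.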
